A study of Homo sapiens with 6 samples.

Results

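Transcripts of 10 enzymes and recruiters that write, copy or remove DNA methylation, or write the polycomb mark on histone H3, were followed in MDA-MB-453, a HER2+ line of breast cancer cells in long-standing use, after *DUSP6* knockdown by siRNA. The genes were taken by symbol from the 22807 genes of the deposited table and were *UHRF1*, *UHRF2*, *DNMT1*, *DNMT3A*, *DNMT3B*, *TET1*, *TET2*, *TET3*, *EZH2* and *EZH1*. All 10 were in the table and all 10 passed the filter described below. RNA sequencing covered 6 libraries, 3 from cells given scrambled siRNA (genotype labelled WT) and 3 from cells given *DUSP6* siRNA (genotype labelled DUSP6 KD). Within each group the study used 3 different siRNAs, but the assignment of siRNAs to libraries was not given in the sources used here, and each library was counted as 1 replicate. All libraries came from 1 cell line grown in RPMI medium with serum, and p-values therefore describe the spread between these libraries.

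Each time a cell copies its DNA, the new strand lacks the methyl groups of the old one. UHRF1 recognises such hemimethylated CpG sites and brings in DNMT1, the enzyme that restores the pattern, whereas DNMT3A and DNMT3B place methyl groups on sites that had none. TET1, TET2 and TET3 oxidise methylated cytosine, which is the first step of its removal. EZH2 and its paralogue EZH1 are the alternative catalytic subunits of polycomb repressive complex 2 (PRC2), which methylates lysine 27 of histone H3 (H3K27), and EZH2 is typical of dividing cells while EZH1 is also found in resting ones. *UHRF1*, *DNMT1* and *EZH2* are widely described targets of the E2F transcription factors, which turn on genes for DNA replication.

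The promoters of the members are shown first because those of *UHRF1*, *DNMT1*, *EZH2* and *EZH1* carried a short E2F word. RefSeq windows on GRCh38.p14 of 300 bases each, from 250 bases before to 50 bases after a start site, matched all 10 genes with 22 windows. The E2F word was searched as TTTCCCGC, TTTCGCGC, TTTGCCGC or TTTGGCGC on both strands, and none of these words contains another. The stretches below are 30 bases each in the direction of the gene, with the word in capitals, and a word on the other strand is read as its reverse complement.
*UHRF1*, first window, chr19:4909476-4909505, plus strand: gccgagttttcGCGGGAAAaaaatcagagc
*UHRF1*, second window, chr19:4909973-4910002, plus strand: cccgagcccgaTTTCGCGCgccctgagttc
*DNMT1*, chr19:10194937-10194966, minus strand: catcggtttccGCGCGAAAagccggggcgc
*EZH2*, chr7:148884272-148884301, minus strand: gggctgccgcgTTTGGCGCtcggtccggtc
*EZH1*, chr17:42745137-42745166, minus strand: gcggggttttgGCGGCAAAtgacagtagtg

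Counted from the annotated start site, the word lay at -14 to -7 in the first and at -160 to -153 in the second *UHRF1* window. It lay at -2 to 6 in *DNMT1*, at 2 to 9 in *EZH2* and at -115 to -108 in *EZH1*. The word was thus found in 4 of 10 members, against 4% of all 27305 genes with a window and 6.9% of the 9876 tested genes that had a window. Counted by window, it was in 3.3% of all 35116 windows. The 10 members had 22 windows, which is more per gene than for all genes and gives a member more places for a match. Among genes called lower 8.7% carried it and among genes called higher 6%. The 4 members with the word did not move in 1 direction, since *UHRF1*, *DNMT1* and *EZH2* fell and *EZH1* rose. *DNMT3B* and *TET3* fell and had no word in their windows, which did not reach the outermost annotated start of either gene. A match of letters is a description of these windows and does not show binding.

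Of the other motifs searched on both strands, the CHR word TTTGAA was found in 2 of 10 members (13.5% of tested genes, 18.2% of all genes with a window). CCAAT was found in 5 of 10 (43.6% of tested genes, 39.7% of all genes with a window). Both were near the shares of tested genes. CpG sites, the substrate of the enzymes themselves, were dense in most of these promoters, and 17 of the 22 windows held more than the median of all windows, which was 14. The exception among the genes that changed was *DNMT3B*, whose single window held 3. This window (chr20:32779602-32779901) lay inside the gene, which begins at 32762385, so the CpG content at that beginning was not examined.

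A normalized value is the number of reads of a gene relative to the scaled size of its library. The deposited values gave back 45546981 to 85729785 reads per library, and 1 read was worth a value of 0.0121 to 0.0202. *DUSP6* itself was at 209, 110 and 114 with scrambled siRNA and at 39.4, 24.5 and 35.2 with *DUSP6* siRNA, the direction that the labels give. Exons of an antisense gene cover 28.6% of its exons, which limits that value. The luminal markers *ERBB2* and *FOXA1* were expressed in all libraries, although both were called lower in the fit described below (log2 fold changes of -0.99 and -0.79). Of 6 luminal markers 4 were called lower and 1 higher, beside 24.7% and 19.7% of all tested genes. Among 6 markers of other cell types, *PTPRC*, *PECAM1*, *KRT5*, *KRT14* and *VIM* had means below 1. The remaining marker, *COL1A1*, had means of 92.2 with scrambled siRNA and 173 with *DUSP6* siRNA. In bulk RNA, fewer cells of a type and less RNA per cell cannot be told apart.

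All fold changes below are *DUSP6* siRNA against scrambled siRNA on the log2(value + 1) scale, from limma fitted to the 12862 genes whose mean value reached 1, with p-values adjusted over all of them by the Benjamini-Hochberg method and a call at an adjusted p under 0.05. The siRNA changed a large part of the transcriptome, with 19.7% of the tested genes called higher and 24.7% called lower. Against this, 5 of the 10 members were called lower (*UHRF1*, *DNMT3B*, *TET3*, *DNMT1* and *EZH2*), 1 was called higher (*EZH1*) and 4 were not called. The median log2 fold change was -0.31 over the members and -0.01 over all tested genes. In the 6 genes called, no *DUSP6* siRNA library overlapped the scrambled siRNA libraries, and in the 4 others the groups overlapped. Among all tested genes 57.8% had groups that did not overlap, so the 6 of 10 is near the background. No member shared more than 5% of its exon sequence with another gene.

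**Figure D1:**
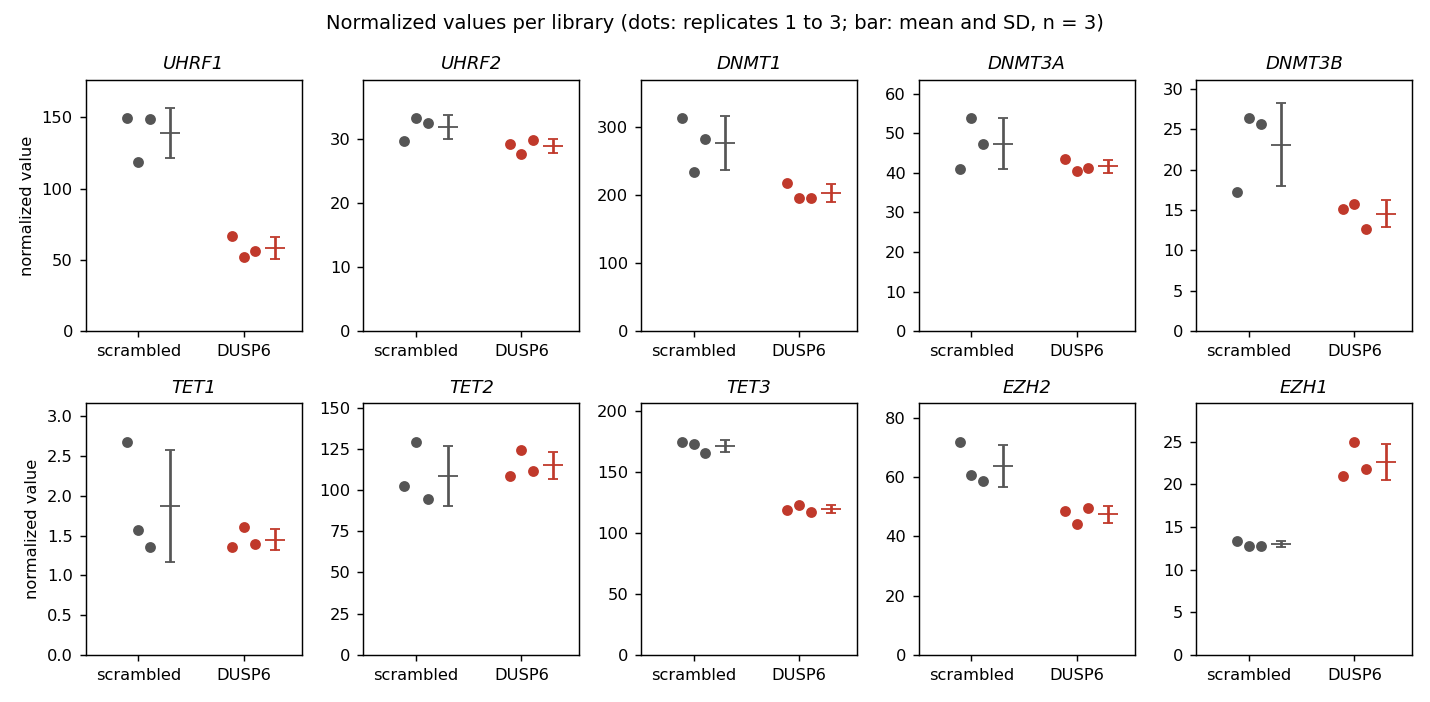
Normalized value (vertical axis, from 0) of each of the 10 genes in the 3 scrambled siRNA (grey) and 3 DUSP6 siRNA (red) libraries, one panel per gene, with the mean and SD beside the dots. The groups are apart in the panels of UHRF1, DNMT1, DNMT3B, TET3, EZH2 and EZH1 and overlap in those of UHRF2, DNMT3A, TET1 and TET2.

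*UHRF1* (chromosome 19, 4903080 to 4962154 on GRCh38) had the largest change of the 10 genes. In the order of replicates 1 to 3, which is kept for all genes below, the normalized value was 149, 119 and 149 with scrambled siRNA and 66.9, 52.1 and 56.1 with *DUSP6* siRNA. The highest *DUSP6* siRNA library was thus well below the lowest scrambled siRNA library. The group mean decreased from 139 ± 17.5 (SD, n = 3) to 58.3 ± 7.64 (SD, n = 3), for a log2 fold change of -1.24 (standard error, SE, 0.13, limma adjusted p = 1.24e-04). The mean was 58.0% lower, and the change was larger in size than that of 96.0% of the tested genes. Under every alternative tried, including each library left out in turn, it stayed between -1.35 and -1.12 and was called.

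*UHRF2* (chromosome 9, 6413199 to 6507054), a paralogue that does not replace UHRF1 in maintenance methylation, was measured at 29.7, 33.2 and 32.5 with scrambled siRNA and at 29.1, 27.6 and 29.8 with *DUSP6* siRNA. The groups overlapped narrowly and the log2 fold change of -0.13 (95% interval -0.35 to 0.08, limma adjusted p = 0.271) was not called. Ratios of 2 genes were formed within each library from value + 1, without correction for transcript length, so only their difference between groups is of use. The log2 ratio of *UHRF1* to *UHRF2* was 2.09 ± 0.25 with scrambled siRNA and 0.98 ± 0.16 with *DUSP6* siRNA (SD, n = 3), a difference of -1.10, and no library of one group overlapped the other (exact two-sided permutation test, p = 0.1, the smallest that 3 libraries against 3 allow).

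*DNMT1* (chromosome 19, 10133346 to 10194953), the maintenance methyltransferase, was measured at 314, 235 and 283 with scrambled siRNA and at 218, 196 and 196 with *DUSP6* siRNA. All *DUSP6* siRNA libraries were lower, but scrambled siRNA replicate 2 came close to *DUSP6* siRNA replicate 1. The group mean decreased from 277 ± 40.0 (SD, n = 3) to 203 ± 12.8 (SD, n = 3), for a log2 fold change of -0.44 (SE 0.12, limma adjusted p = 0.0151). The call was lost under quantile normalization (-0.22, limma adjusted p = 0.115) and without *DUSP6* siRNA replicate 2 (-0.41, limma adjusted p = 0.0649) or replicate 3 (-0.41, limma adjusted p = 0.0628). The fold change of *DNMT1* was smaller than that of *UHRF1*, and the log2 ratio of *DNMT1* to *UHRF1* differed, from 0.99 ± 0.07 to 1.79 ± 0.10 (SD, n = 3), with the groups apart (exact two-sided permutation test, p = 0.1, the smallest possible).

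Most transcripts of proteins that work with UHRF1 and DNMT1 at replicated DNA were lower too. Of 8 such genes, 6 were called lower and 0 higher, beside 24.7% lower among all tested genes, and the list median was -0.57 on the log2 scale. The largest changes were those of *HELLS*, a chromatin remodeller needed for methylation of silent DNA, and of its partner *CDCA7*. *HELLS* was measured at 46.8, 45.1 and 48.6 with scrambled siRNA and at 26.9, 23.7 and 24.1 with *DUSP6* siRNA (log2 fold change -0.89, SE 0.09, limma adjusted p = 1.53e-04). *CDCA7* was measured at 62.7, 41.3 and 70.3 against 36.4, 27.9 and 30.9 (log2 fold change -0.83, SE 0.19, limma adjusted p = 0.00709). For both genes every *DUSP6* siRNA library lay below every scrambled siRNA library. *LIG1*, the ligase that joins replicated DNA fragments and that UHRF1 binds, changed by -0.72 (SE 0.10, limma adjusted p = 6.44e-04), and the other 3 called genes lay between -0.57 and -0.54. *ZBTB24* (-0.21) and *DMAP1* (0.13), named here because they were the only list members not called, had overlapping groups. *ZBTB24* was called lower without scrambled siRNA replicate 2 (-0.31, limma adjusted p = 0.0492).

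The de novo enzymes differed from each other. *DNMT3B* (chromosome 20, 32762385 to 32809356) was measured at 17.2, 26.4 and 25.7 with scrambled siRNA and at 15.2, 15.8 and 12.7 with *DUSP6* siRNA. Scrambled siRNA replicate 1 stood below the other two of its group and only slightly above the *DUSP6* siRNA libraries. The group mean decreased from 23.1 ± 5.12 (SD, n = 3) to 14.6 ± 1.65 (SD, n = 3), for a log2 fold change of -0.61 (SE 0.17, limma adjusted p = 0.0167). The call was lost without scrambled siRNA replicate 2 (-0.51, limma adjusted p = 0.0545) or without *DUSP6* siRNA replicate 3 (-0.52, limma adjusted p = 0.0694).

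*DNMT3A* (chromosome 2, 25227874 to 25342590) was measured at 41.0, 53.8 and 47.3 with scrambled siRNA and at 43.6, 40.4 and 41.1 with *DUSP6* siRNA. The groups overlapped, and the log2 fold change of -0.17 (95% interval -0.43 to 0.08, limma adjusted p = 0.239) was not called. It was -0.27 without scrambled siRNA replicate 1, -0.08 without scrambled siRNA replicate 2 and -0.10 under quantile normalization, and was not called in any of these. The log2 ratio of *DNMT3B* to *DNMT3A* was -1.02 with scrambled siRNA and -1.46 with *DUSP6* siRNA, a difference of -0.44, and the groups were apart (exact two-sided permutation test, p = 0.1, the smallest possible). For *DNMT1* against *DNMT3A* the groups overlapped (difference -0.26, two-sided exact permutation test, p = 0.4).

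Among 6 cofactors of the de novo enzymes and histone methyltransferases that steer them, 5 were tested. Of these, 2 were called higher and 0 lower, beside 19.7% and 24.7% of all tested genes. *SETDB1*, which methylates histone H3 lysine 9 at silenced repeats, rose from 90.5 ± 5.69 to 117 ± 1.86 (SD, n = 3; log2 fold change 0.37, SE 0.08, limma adjusted p = 0.00759), with 12.9% of its exons shared with a neighbour. *TRIM28*, the corepressor that recruits SETDB1, was higher by 0.41 (SE 0.14, limma adjusted p = 0.0397), but this call was lost when any library other than scrambled siRNA replicate 3 was left out and without the filter on low values, with log2 fold changes of 0.31 to 0.45. The remaining gene, *DNMT3L*, the germline cofactor of DNMT3A and DNMT3B, had 1 to 6 reads per library and was not tested.

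The TET enzymes did not move together. *TET3* (chromosome 2, 73983631 to 74135498) was measured at 174, 173 and 165 with scrambled siRNA and at 119, 123 and 117 with *DUSP6* siRNA. Replicates were closer to each other than in most members and the groups were far apart. The group mean decreased from 171 ± 4.95 (SD, n = 3) to 120 ± 3.10 (SD, n = 3), for a log2 fold change of -0.51 (SE 0.08, limma adjusted p = 0.00108). It was called under every alternative tried, with values from -0.54 to -0.36, the latter under quantile normalization.

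*TET2* (chromosome 4, 105145875 to 105279803) was measured at 103, 129 and 94.2 with scrambled siRNA and at 109, 124 and 111 with *DUSP6* siRNA. The *DUSP6* siRNA libraries lay inside the scrambled siRNA range, with a log2 fold change of 0.09 (95% interval -0.19 to 0.37, limma adjusted p = 0.584). *TET1* (chromosome 10, 68560337 to 68694487) was close to the filter at 2.68, 1.57 and 1.36 against 1.35, 1.60 and 1.39, which correspond to 67 to 180 reads per library. Scrambled siRNA replicate 1 alone stood apart, and the log2 fold change of -0.20 (95% interval -0.58 to 0.17, limma adjusted p = 0.346) was not called. It was -0.01 without scrambled siRNA replicate 1, -0.33 without scrambled siRNA replicate 3, under quantile normalization and with edgeR, and was not called in any of these. The log2 ratio of *TET3* to *TET2* was 0.66 ± 0.21 with scrambled siRNA and 0.06 ± 0.07 with *DUSP6* siRNA (SD, n = 3), a difference of -0.60 with the groups apart (exact two-sided permutation test, p = 0.1, the smallest possible). For *TET1* against *TET2* the groups overlapped (difference -0.29, two-sided exact permutation test, p = 0.4).

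Of 17 genes that act with or after TET enzymes, in base excision or in the supply of their cofactor, 2 were called higher and 4 lower, which is not above the 19.7% and 24.7% of all tested genes. *IDH2*, the mitochondrial enzyme that makes the TET cofactor 2-oxoglutarate, fell from 42.7, 34.9 and 41.2 with scrambled siRNA to 18.2, 17.2 and 16.6 with *DUSP6* siRNA. This was a log2 fold change of -1.14 (SE 0.11, limma adjusted p = 8.01e-05), close to that of *UHRF1*. The paralogues *CXXC5* and *CXXC4*, which encode CXXC proteins that bind unmethylated CpG and partner TET2, moved in opposite directions. *CXXC5* was measured at 73.8, 72.0 and 63.5 against 38.4, 36.2 and 32.6 (log2 fold change -0.95, SE 0.10, limma adjusted p = 1.69e-04). *CXXC4* was low and was measured at 1.95, 1.40 and 0.928 against 3.32, 5.33 and 3.74 (log2 fold change 1.08, SE 0.19, limma adjusted p = 0.002). *D2HGDH*, which clears the TET inhibitor 2-hydroxyglutarate, was called higher at 0.65 (SE 0.10, limma adjusted p = 0.00108, 18.6% of exons shared). The base excision gene called lower, outside the naming rule, was *LIG3* (-0.27), a call that held in only 5 of the 14 alternatives and was lost without scrambled siRNA replicate 1 (-0.19) or any of the *DUSP6* siRNA replicates (-0.27 to -0.26).

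**Figure D2:**
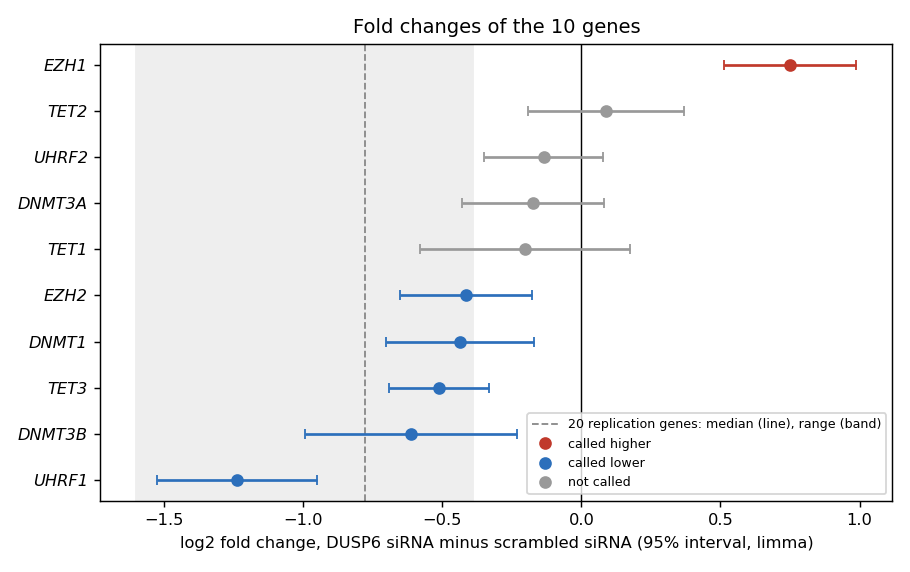
Log2 fold change of each of the 10 genes (horizontal axis, DUSP6 siRNA minus scrambled siRNA, dots with 95% limma intervals), coloured by call, with the median (dashed line, -0.78) and range (grey band, -1.60 to -0.39) of 20 DNA replication genes. EZH1 lies at 0.75 on the right, and UHRF1 is the only gene to the left of the dashed line.

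*EZH2* (chromosome 7, 148807383 to 148884291) was measured at 71.9, 60.8 and 58.7 with scrambled siRNA and at 48.7, 44.2 and 49.6 with *DUSP6* siRNA. All *DUSP6* siRNA libraries were lower than all scrambled siRNA libraries. The group mean decreased from 63.8 ± 7.10 (SD, n = 3) to 47.5 ± 2.92 (SD, n = 3), for a log2 fold change of -0.41 (SE 0.11, limma adjusted p = 0.0119). The call was lost without *DUSP6* siRNA replicate 2 (-0.36, limma adjusted p = 0.0577) and held under the other alternatives.

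*EZH1* (chromosome 17, 42700275 to 42745040) moved the other way. It was measured at 13.4, 12.8 and 12.8 with scrambled siRNA and at 21.0, 25.0 and 21.8 with *DUSP6* siRNA, so that every *DUSP6* siRNA library was above the tightly grouped scrambled siRNA libraries. The mean rose from 13.0 ± 0.327 (SD, n = 3) to 22.6 ± 2.11 (SD, n = 3), which is 73.9% higher and a log2 fold change of 0.75 (SE 0.11, limma adjusted p = 6.24e-04). It was called under every alternative tried, between 0.68 and 0.83. The log2 ratio of *EZH2* to *EZH1* was 2.21 ± 0.12 with scrambled siRNA and 1.04 ± 0.21 with *DUSP6* siRNA (SD, n = 3), a difference of -1.17, with the groups apart (exact two-sided permutation test, p = 0.1, the smallest possible, and 0.14 after adjustment over the 7 ratios computed, as for each ratio whose groups were apart). In size this was the largest of the 7 differences.

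**Figure D3:**
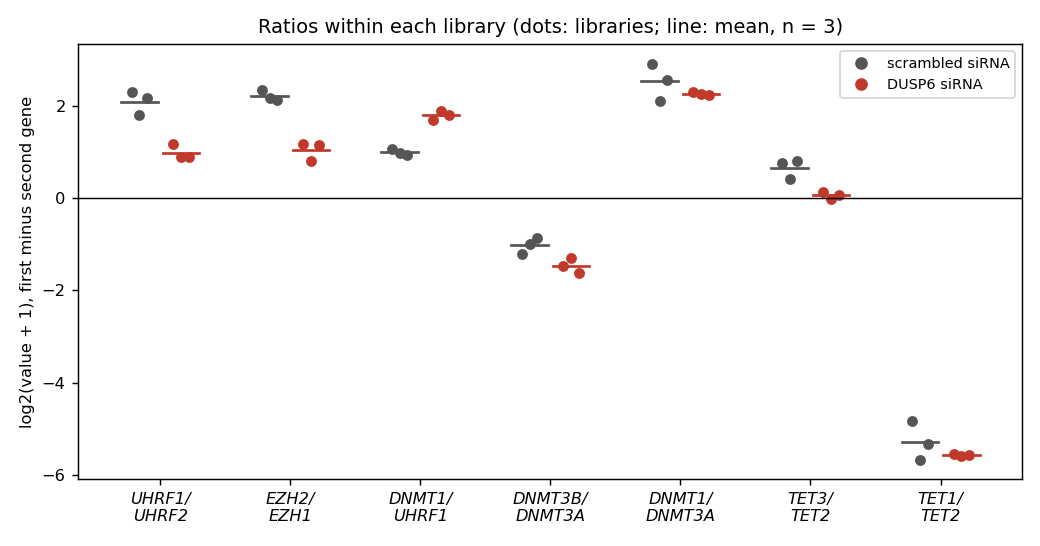
Log2 ratio of the first to the second gene of each pair within each library (vertical axis, difference of log2(value + 1)), for 3 scrambled siRNA (grey) and 3 DUSP6 siRNA (red) libraries, with lines at the means. UHRF1/UHRF2, EZH2/EZH1, DNMT3B/DNMT3A and TET3/TET2 are lower and DNMT1/UHRF1 higher with DUSP6 siRNA in every library, whereas DNMT1/DNMT3A and TET1/TET2 overlap.

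Of 12 genes for other subunits or inhibitors of PRC2, 11 were in the table and tested. Of these 1 was called higher and 1 lower, beside 19.7% and 24.7% of all tested genes. The core subunits, named here for their role and not by the naming rule, were not called. *EED* had a log2 fold change of 0.13, *SUZ12* of -0.13, *RBBP4* of 0.11 and *RBBP7* of -0.13. *MTF2*, an accessory subunit that brings PRC2 to CpG islands, rose from 34.3, 46.4 and 34.4 with scrambled siRNA to 54.8, 58.6 and 56.9 with *DUSP6* siRNA (log2 fold change 0.57, SE 0.13, limma adjusted p = 0.00645). *AEBP2*, a subunit of the other PRC2 subtype, was called lower at -0.30 (SE 0.10, limma adjusted p = 0.035), a call lost under quantile normalization (-0.26), the replicate block, edgeR (-0.28) and without any library other than scrambled siRNA replicate 3 (-0.34 to -0.25). *PHF19*, another accessory subunit named after its values were seen, was not called (-0.34) but was called lower with the replicate block, under the median of ratios and without scrambled siRNA replicate 2 (-0.47, limma adjusted p = 0.00649). Of the 2 enzymes that remove the H3K27 mark, *KDM6A* rose from 61.8 ± 8.28 to 89.9 ± 5.44 (SD, n = 3; log2 fold change 0.54, SE 0.11, limma adjusted p = 0.00461), and *KDM6B* was not called (-0.23, limma adjusted p = 0.144) except without scrambled siRNA replicate 3 (-0.33, limma adjusted p = 0.0334).

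For polycomb repressive complex 1, which binds and extends polycomb silencing, 20 of 21 subunit genes were tested. Of these 3 were called higher and 5 lower, near the 19.7% and 24.7% of all tested genes, and their median log2 fold change was -0.03. *PCGF5*, a subunit of variant complexes, rose from 2.81, 2.49 and 3.15 with scrambled siRNA to 9.32, 8.91 and 10.9 with *DUSP6* siRNA (log2 fold change 1.49, SE 0.12, limma adjusted p = 3.82e-05). *RYBP*, another subunit of variant complexes, fell from 208, 167 and 150 to 91.9, 90.0 and 90.6 (log2 fold change -0.92, SE 0.12, limma adjusted p = 4.19e-04). In both genes the groups were far apart. *RING1* was called higher at 0.38 (limma adjusted p = 0.00827). The call of *CBX6* (0.44) was lost without the filter and without replicate 1 or 2 of either group (0.35 to 0.47). That of *BCOR* (-0.49) was lost without any of the *DUSP6* siRNA libraries (-0.51 to -0.48), and that of *PHC3* (-0.47) without *DUSP6* siRNA replicate 1 (-0.44) or 3 (-0.45) and under quantile normalization (-0.34).

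Of 8 proteins that read methylated CpG, 2 were called higher and 2 lower at the transcript level, near the 19.7% and 24.7% of all tested genes. *MBD2* fell from 195, 147 and 127 to 91.1, 88.3 and 96.2 (log2 fold change -0.74, SE 0.14, limma adjusted p = 0.00329) and *ZBTB38* rose from 30.6, 28.1 and 21.9 to 37.7, 48.9 and 38.9 (log2 fold change 0.63, SE 0.15, limma adjusted p = 0.0086). The call of *MBD3* (0.51, 11.6% of exons shared) was lost without the filter and without scrambled siRNA replicate 1 (0.33) or *DUSP6* siRNA replicate 1 (0.47) or 2 (0.44). That of *MBD4* (-0.28, 8.3% of exons shared) was lost without any of the *DUSP6* siRNA libraries (-0.28 to -0.27), with the replicate block and under quantile normalization (-0.20). Of 11 genes of the methyl donor cycle 1 was called higher and 3 lower, again near the shares of all tested genes. *AHCY*, which clears the methyltransferase inhibitor S-adenosylhomocysteine, fell from 365 ± 62.6 to 215 ± 7.50 (SD, n = 3; log2 fold change -0.75, SE 0.13, limma adjusted p = 0.0018). *MTHFD1* was lower by -0.42, a call lost under quantile normalization (-0.20), and *SHMT1* was lower by -0.40, a call lost without *DUSP6* siRNA replicate 3 (-0.39).

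**Figure D4:**
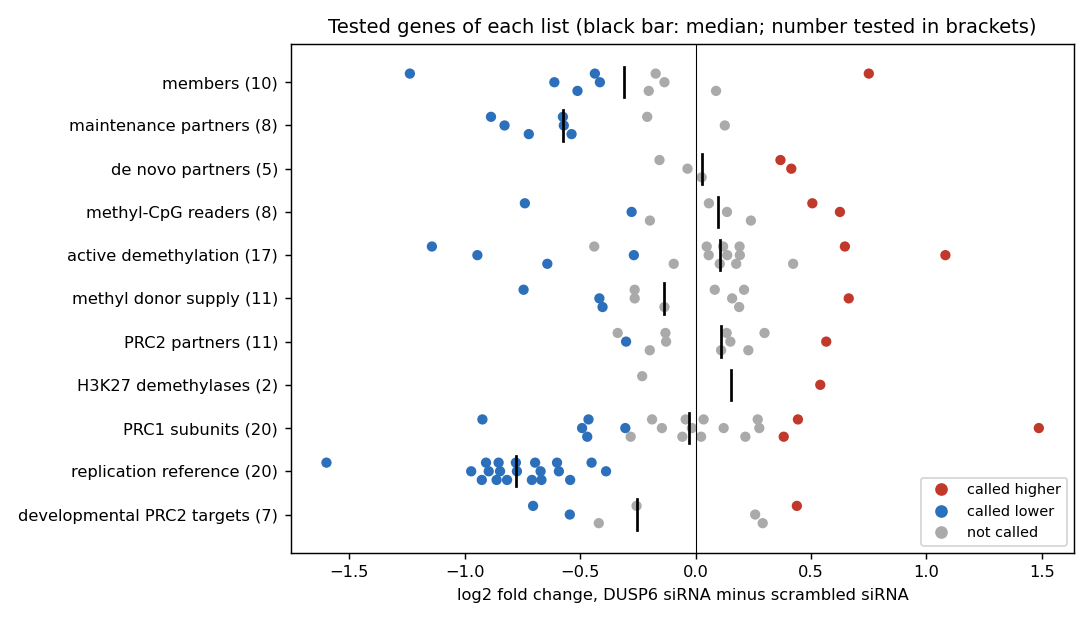
Log2 fold change of each tested gene (horizontal axis, DUSP6 siRNA minus scrambled siRNA; dots, red called higher, blue called lower, grey not called) in the 10 members and in lists of related genes, with a black bar at each list's median. The 20 replication genes all lie left of 0, the maintenance partners lie mostly left of 0 with a median of -0.57, and the other lists lie on both sides.

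Because several members are transcribed mainly in dividing cells, each was also set against 20 genes of the replication fork and of nucleotide supply. All 20 were called lower, beside 24.7% of all tested genes. Their median log2 fold change was -0.78, with a range from -1.60 (*RRM2*) to -0.39 (*MCM7*). *MCM7* lost its call without the filter, under quantile normalization (-0.17) and without scrambled siRNA replicate 1 (-0.33) or 3 (-0.32) or *DUSP6* siRNA replicate 2 (-0.34) or 3 (-0.37). The E2F word was found in 10 of the 18 of these genes that had a promoter window. Within each library the log2 level of a member minus the mean of these 20 genes was compared between groups by two-sided exact permutation tests, for which 0.1 is the smallest possible p. The 10 comparisons therefore cannot pass 0.05, with or without adjustment.

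*UHRF1* was the only member with a negative difference from the reference, -0.46 with the groups apart (exact permutation test, p = 0.1), and 19 of the 20 reference genes had a smaller decrease. *DNMT1* and *EZH2* were lower than with scrambled siRNA, but by less than the reference mean. Relative to it *DNMT1* stood at 0.34 and *EZH2* at 0.36, in both cases with the groups apart (exact permutation test, p = 0.1), and for each gene 19 of the 20 reference genes had a larger decrease. For *DNMT3B* (0.17, exact permutation test, p = 0.7) and *TET3* (0.27, exact permutation test, p = 0.2) the groups overlapped. For the remaining members the *DUSP6* siRNA libraries were all higher relative to the reference than the scrambled siRNA libraries. The differences ran from *TET1* at 0.57 and *DNMT3A* at 0.60 through *UHRF2* at 0.64 and *TET2* at 0.87 to *EZH1* at 1.53. As the reference itself fell, a gene without any change also stands higher by this measure. For *TET1*, *DNMT3A*, *UHRF2* and *TET2*, which were not called, the differences therefore show no rise. Whether a change in the share of dividing cells had a part in any of these values was not tested.

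Per kilobase of canonical transcript, the order of the levels with scrambled siRNA was *DNMT1* (normalized value per kb 52.6), *UHRF1* (35.7), *EZH2* (24.0), *TET3* (14.2), *TET2* (11.3), *UHRF2* (8.89), *DNMT3B* (5.32), *DNMT3A* (5.03), *EZH1* (2.80) and *TET1* (0.195). In this order *DNMT3B* and *DNMT3A* were the only neighbours whose ranges over the 3 libraries overlapped. With *DUSP6* siRNA the order was *DNMT1* (38.6), *EZH2* (17.9), *UHRF1* (15.0), *TET2* (12.0), *TET3* (9.91), *UHRF2* (8.07), *EZH1* (4.87), *DNMT3A* (4.42), *DNMT3B* (3.36) and *TET1* (0.151). *UHRF1* thus moved behind *EZH2* with overlapping ranges, *TET3* behind *TET2* without overlap, and *EZH1* reached *DNMT3A* with overlapping ranges. *EZH2* remained the more abundant of the PRC2 enzymes and *DNMT1* the most abundant member in every library.

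**Figure D5:**
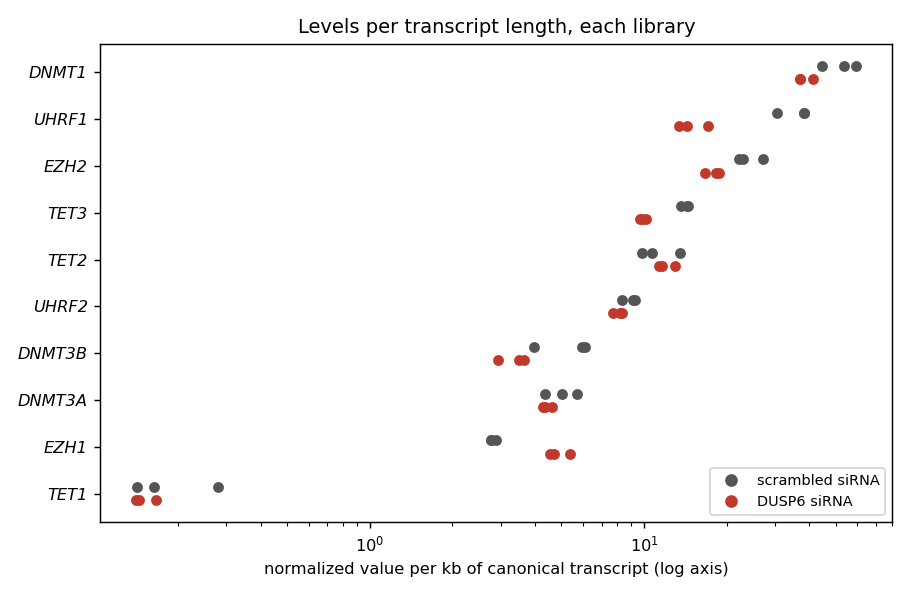
Normalized value per kb of canonical transcript (horizontal log axis) of the 10 genes in the 3 scrambled siRNA (grey) and 3 DUSP6 siRNA (red) libraries, ordered by the scrambled siRNA mean. The genes span from about 0.195 (TET1) to 52.6 (DNMT1) with scrambled siRNA, and the red dots of EZH1 lie to the right of its grey dots while those of UHRF1 lie clearly to the left.

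Genes that promoter DNA methylation is known to keep silent outside the germline stayed near the detection limit. Of 25 such genes, 19 were in the table and none reached the filter, so 0 were tested in the limma fit. Their summed value was 2.28 to 2.40 with scrambled siRNA and 2.52 to 3.34 with *DUSP6* siRNA, or 120 to 189 reads against 159 to 216 reads per library. The largest value of any of them was 1.45, in *MAGEC1*, a cancer-testis gene. It had 23, 14 and 16 reads with scrambled siRNA and 58, 52 and 94 with *DUSP6* siRNA. Without the filter it was called higher (log2 fold change 0.70, limma adjusted p = 0.0114) and *SYCP3*, a meiotic chromosome gene, lower (-0.33, limma adjusted p = 0.02), and no other gene of the list was called. Both were named after their values were seen.

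Of 21 developmental regulators known to carry H3K27me3 in many cell types, 16 were in the table and 7 were tested. Of these 7 genes, 1 was called higher and 2 lower, beside 19.7% and 24.7% of all tested genes. *GATA4* fell from 10.6, 9.02 and 8.83 with scrambled siRNA to 6.19, 5.15 and 4.97 with *DUSP6* siRNA (log2 fold change -0.70, SE 0.12, limma adjusted p = 0.00197), with no overlap between the groups. *NKX2-2* was lower at -0.54 (limma adjusted p = 0.00555), with 43.9% of its exons shared with another gene. *EOMES* was higher at 0.44 (limma adjusted p = 0.0345), a call lost without any one of the *DUSP6* siRNA libraries, without the filter and under quantile normalization. Of the other 4 tested genes, which were not called, 1 was called lower with the replicate block, under quantile normalization (-0.47) and without scrambled siRNA replicate 3 (-0.60), and another was called lower without that library (-0.46). Without the filter *PAX3* was called higher (log2 fold change 0.17, limma adjusted p = 0.0122) and *WT1* lower (-0.19, limma adjusted p = 0.0406). Both had few reads. *PAX3* had 1, 0 and 1 with scrambled siRNA and 9, 6 and 10 with *DUSP6* siRNA, and *WT1* had 13, 5 and 24 against 3, 4 and 1. They were named after their values were seen. Neither methylation of DNA nor of H3K27 was measured in these libraries.

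Interferon-stimulated genes moved with the groups. All 8 genes examined were called higher, beside 19.7% of all tested genes. Their summed value was 173 to 204 with scrambled siRNA and 3210 to 3915 with *DUSP6* siRNA. *COL1A1*, a collagen gene of connective tissue, was also called higher, at 80.7 to 105 against 162 to 192 (log2 fold change 0.90), while 5 of the 6 markers of other cell types stayed under the filter. The part of these genes, or of the siRNA sequences, in the changes of the 10 members was not tested.

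The genes whose pattern over the 6 libraries was most like that of 4 members were found among 9543 genes with a mean of at least 10, by the root mean square difference of the log2 values after subtracting each gene's scrambled siRNA mean. For *UHRF1* they were *GDF11* (difference 0.05), *NDC1* (0.06) and *RMI2* (0.06), whose log2 fold changes were -1.20, -1.30 and -1.32. For *DNMT1* they were *USB1*, *RPP40* and *TOMM40*, and for *EZH2* they were *XPO1*, *TXNDC11* and *SLC35A3*. For *EZH1* they were *ABCC10*, *NCSTN* and *FBXW4*, with log2 fold changes of 0.75, 0.71 and 0.69. All of these differences were at most 0.06, and with 6 libraries in 2 groups likeness mainly reflects the size of the change.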

How the data were processed

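The authors aligned the reads to hg38 and assigned them to RefSeq gene models with Rsubread, and the labels' processing notes also name bcl2fastq and edgeR. Libraries were made from polyadenylated RNA with a stranded kit, and default counting ignores strand. The authors deposited normalized signal values on a linear scale, 1 per gene and library. Each was a whole number of reads (tolerance 0.001) times 1 step per library, and the steps were those of edgeR's TMM scaling. Values were analysed as log2(value + 1) by linear models in limma (version 3.58.1, R 4.3.3), with eBayes allowing for a trend, for genes with a mean of at least 1, and the fit was tested on simulated data. The pseudocount makes changes of low genes smaller. edgeR 4.0.16's quasi-likelihood test was run on the recovered reads as an alternative. Gene positions and exon overlap came from GENCODE 44 on GRCh38, and promoter windows from RefSeq.

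The 10 genes and the lists of related genes were chosen with earlier results of these data known. Besides the members, at most 3 genes called in each direction were named from each list, those with the largest changes, with 3 genes of like pattern for *UHRF1*, *DNMT1*, *EZH2* and the member that rose most. Exceptions are stated where they occur. Some genes of the lists are counted but not reported here by name. Columns of 0 other samples were found. Ratios and values against the replication genes used two-sided exact permutation tests over the 6 libraries.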

Additional observations from a re-analysis of the deposited data

How the results depend on the processing

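*UHRF1*, *TET3* and *EZH1* kept their direction and their call under all 14 alternatives (a pseudocount of 0.1, no filter, a mean of at least 10, edgeR, a replicate block, no variance trend, quantile normalization, scaling by the median of ratios, and each of the 6 libraries left out). *DNMT1* lost its call under quantile normalization (-0.22, limma adjusted p = 0.115), which also moved the difference between groups in the log2 ratio of *DNMT1* to *UHRF1* from 0.80 to 0.90 and that of *DNMT1* relative to the replication genes from 0.34 to 0.45. With each library left out in turn, the log2 fold change ranged from -0.55 to -0.34 for *DNMT1*, from -0.80 to -0.51 for *DNMT3B*, from -0.47 to -0.33 for *EZH2* and from -0.01 to 0.22 for *TET2*, which was not called in any of them and was -0.0069 without scrambled siRNA replicate 3. The number of members called lower was then 3 to 5, with 3 without *DUSP6* siRNA replicate 2 or replicate 3, and was 4 under quantile normalization. Genes called higher over the whole table numbered 1574 (without *DUSP6* siRNA replicate 2) to 3183 with a library left out and 1639 with a mean of at least 10. Fewer genes or fewer libraries entered these fits, and the cause of the shifts was not tested. *TET1* had no value with a mean of at least 10.

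Replicate numbers did not pair the samples: the deviations of same-numbered libraries from their group means correlated at 0.01, 0.09 and -0.08. With the replicate block 5 members were called lower and 1 higher, as without it, and 2495 genes were called higher and 3096 lower in all. Depth limits the values of *TET1*, with 67 to 180 reads per library, and of the germline genes.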
